A study of Homo sapiens with 6 samples.

Results

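The enzymes described here were 10 human proteins of the methionine cycle and of the methionine salvage pathway: MAT2A, MAT2B, AHCY, MTR, MTRR, MTAP, MRI1, APIP, ENOPH1 and ADI1. They were picked by gene symbol from a table of splicing events, a rule that used no measured value. Earlier results of these data were known when the members were chosen. The members made up 10 of the 30275 genes and 403 of the 721551 events that the table listed. MAT2A and ADI1 lie on chromosome 2, MAT2B and MTRR on 5, AHCY on 20, MTR on 1, MTAP on 9, MRI1 on 19, APIP on 11 and ENOPH1 on 4. The cells were SKNBE2, a single human neuroblastoma line with amplified MYCN. One group of 3 libraries came from SKNBE2 cells kept in 250 µM DFMO for 4 days, and the other group of 3 libraries from SKNBE2 cells labelled Control, for which the labels give no dose or time. DFMO (difluoromethylornithine) blocks ornithine decarboxylase, the enzyme that makes putrescine, the first polyamine. Nothing in the labels says whether the 3 libraries of a group were separate cultures, so each p-value measures the spread between these libraries, which may be technical.

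In the methionine cycle, MAT2A joins methionine to ATP to make S-adenosylmethionine (SAM), the methyl donor of the cell, and MAT2B is its regulatory partner. Methyltransferases turn SAM into S-adenosylhomocysteine, AHCY splits that product into adenosine and homocysteine, and MTR, kept active by MTRR, methylates homocysteine back to methionine. Polyamine synthesis draws on the same pool: AMD1 decarboxylates SAM, and each aminopropyl group passed on to make spermidine or spermine leaves methylthioadenosine, which MTAP, MRI1, APIP, ENOPH1 and ADI1 recycle step by step towards methionine. In human cells the last intron of MAT2A is known to respond to SAM through METTL16, a methyltransferase that methylates an adenosine in hairpins of the MAT2A 3′ untranslated region.

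The sequences that the results turn on are those at MAT2A intron 8 and at the ENOPH1 exons 1 and 3, read 5′ to 3′ from GENCODE 29 transcripts on GRCh38. The first pair shows what follows exon 8 of MAT2A when a transcript reads on into the last intron (MAT2A-202) or removes it (MAT2A-201). MAT2A-202 ends at 85543608, inside intron 8, and has no exon 9, so it gives the letters at the 5′ border and is not the whole retained form. Lower case marks the end of exon 8 from chr2:85542995-85543034, on the plus strand, and capitals mark the first bases of intron 8 or of exon 9.
MAT2A exon 8 read into intron 8: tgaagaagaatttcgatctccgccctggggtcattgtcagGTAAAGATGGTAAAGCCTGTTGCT
MAT2A intron 8 removed: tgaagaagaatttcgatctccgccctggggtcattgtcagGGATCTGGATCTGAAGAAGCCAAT
In MAT2A-202 the annotated stop codon TAA starts at position 85543036 of chromosome 2, after 1 base of the intron. MAT2A-201 runs on through 100 coding bases of exon 9 to a stop codon at 85543770, and the rest of that 1611-nt exon is 3′ untranslated region.

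The METTL16 hairpins of MAT2A carry the motif TACAGAGAA, and 5 copies of it, with 1 copy of the variant TACAGAAAA, were found in MAT2A-201, all of them in the untranslated part of exon 9. They are shown because they lie in the exon that follows intron 8; the motif is in capitals with 10 bases on each side.
MAT2A site 1: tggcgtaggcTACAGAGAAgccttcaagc
MAT2A site 2: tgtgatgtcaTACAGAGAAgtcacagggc
MAT2A site 3: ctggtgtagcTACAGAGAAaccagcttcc
MAT2A site 4: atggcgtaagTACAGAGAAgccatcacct
MAT2A site 5: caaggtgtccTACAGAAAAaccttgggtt
MAT2A site 6: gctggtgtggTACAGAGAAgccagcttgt
Site 1 starts 40 bases after the stop codon and site 6 starts 1350 bases after it (chr2:85543802-85543830 and chr2:85545112-85545140 with their flanks). Only the transcript strand was searched, and the motif copies do not overlap. Of 15670 genes whose longest coding transcript had at least 1611 bases, 3.66% held 1 or more copies of either motif in the last 1611 bases. MAT2A had 6 copies, and no other of those genes had more than 2. A match is a description of these letters, and the table has no value for METTL16 binding or for methylation.

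For ENOPH1, whose exon 3 and exon 1 both differed between the groups, the next lines show exon 3 in capitals (chr4:82451043-82451245, plus strand, 203 nt, coding in ENOPH1-201) between the lower-case ends of exons 2 and 4, the same ends joined as in ENOPH1-202, and the end of exon 1. In exon 1 the capitals mark 29 coding bases that the longer 5′ splice site keeps and the shorter one leaves out (chr4:82430855-82430913).
ENOPH1 exon 3 kept: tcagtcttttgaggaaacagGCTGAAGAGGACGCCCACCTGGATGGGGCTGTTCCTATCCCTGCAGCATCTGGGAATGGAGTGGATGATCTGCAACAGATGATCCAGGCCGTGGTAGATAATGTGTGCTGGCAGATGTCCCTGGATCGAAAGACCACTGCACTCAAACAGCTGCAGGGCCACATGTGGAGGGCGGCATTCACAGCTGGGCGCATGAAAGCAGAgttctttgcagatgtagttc
ENOPH1 exon 3 skipped: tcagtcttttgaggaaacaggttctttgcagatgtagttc
ENOPH1 exon 1 end: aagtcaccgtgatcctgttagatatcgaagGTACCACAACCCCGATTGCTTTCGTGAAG
Neither 203 nor 29 is a multiple of 3, and each leaves a remainder of 2.

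Gene levels were read from a junction-read proxy, since the table holds splicing events and no gene counts. For each exon event with adequate coverage in all 6 libraries, reads were scaled to reads per 1e+06 exon-event reads of the library (RPM), 1 was added and log2 taken; the proxy of a gene averages these values over its events. A log2 difference of low genes is understated on this scale. The proxy counts both junctions of an included exon and thus also moves with inclusion. MAT2A, MTRR, MTAP, MRI1, APIP and ADI1 overlap annotated genes on the opposite strand, and the use of strand in the counting is not given in the sources used here, so reads of such partners cannot be told apart. Of the 10 enzymes, AHCY and ADI1 rose with DFMO, MAT2B, MTRR, MRI1 and ENOPH1 fell, and MAT2A, MTR, MTAP and APIP did not pass the test at an adjusted p of 0.05. All differences were small: the largest, that of MRI1, was -0.24 on the log2 scale, or 0.844-fold. Among the 9232 genes tested, 22.8% passed in the higher and 22.3% in the lower direction, so 2 and 4 of 10 enzymes are not read as particular to this pathway. The median difference was 0.0024 over the 10 enzymes and 0.0020 over all genes, and the median absolute difference was 0.16 and 0.13. Without the filter on the coverage score, MRI1 and ENOPH1 still passed, while MAT2B, AHCY, MTRR and ADI1 did not (limma's adjusted p = 0.166, 0.109, 0.0920 and 0.112). None of the 10 reached 1.5-fold with an adjusted p below 0.05, which 1.13% of all genes did.

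**Figure D1:**
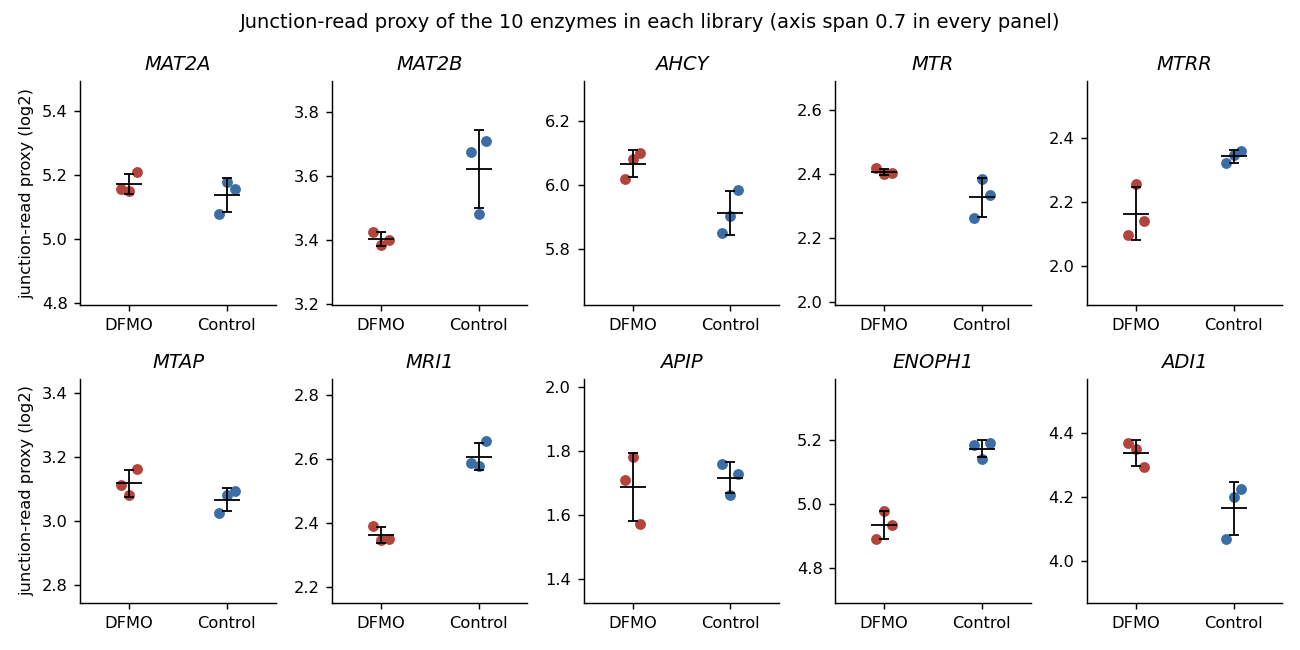
Junction-read proxy (log2, vertical axis) of the 10 enzymes in each library, with DFMO libraries in red on the left and Control libraries in blue on the right of each panel; lines are means and bars are SD (n = 3). The DFMO points of AHCY, ADI1 and MTR lie above, and those of MAT2B, MTRR, MRI1 and ENOPH1 below, all of their Control points.

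MAT2A, which makes SAM, had proxies of 5.16, 5.15 and 5.21 in DFMO replicates 1, 2 and 3, against 5.08, 5.18 and 5.16 in Control replicates 1, 2 and 3. The groups overlapped, and the difference of 0.03 (SE 0.03) had an adjusted p of 0.449. Its 5 exon events were split, 3 higher and 2 lower, between -0.02 and 0.12. MAT2B, the regulatory subunit, had 3.43, 3.39 and 3.40 in DFMO libraries, against 3.68, 3.48 and 3.71 in Control libraries. Every DFMO library was below every Control library, and MAT2B fell by 0.22 (SE 0.06, adjusted p = 0.0145). All 6 of its exon events and all 5 of its introns, read by their exon-exon reads, were lower. Thus, of the SAM synthetase pair, the regulatory subunit stood at 0.859-fold of Control while no change in the catalytic subunit was detected; the difference between the 2 genes' changes was not tested.

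Retention of MAT2A introns was highest at the 3′ end of the gene, and its mean was higher with DFMO at introns 2 to 8. Only at intron 8, the last, did the percents of the groups not overlap. Retention is the percent of transcripts that keep the intron, as the deposited table gives it. Introns 1 to 5 were at 2.23% or less in every library, with overlap. The ratio of mean percents, DFMO over Control, was 0.773 at intron 1 and 1.30, 2.05, 1.25 and 1.16 at introns 2 to 5. It was 1.90, 1.54 and 1.24 at introns 6, 7 and 8, so the ratio was not largest at intron 8. Intron 6 had 4.26%, 2.68% and 1.72% in DFMO libraries, against 1.41%, 1.25% and 1.91% in Control libraries, with overlap, and its mean percent was too low for the test across all introns (exact permutation p = 0.2, two-sided). Intron 7, of 153 nt (chr2:85542748-85542900), had 6.49%, 9.12% and 7.55% in DFMO libraries, against 3.29%, 4.81% and 6.99% in Control libraries. The highest Control library overlapped the lowest DFMO library, and the difference of 2.69 points did not pass (adjusted p = 0.165).

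Intron 8, the last of MAT2A, with 635 nt at chr2:85543035-85543669, was retained at 22.25%, 19.25% and 20.11% in DFMO libraries, against 17.89%, 14.40% and 17.47% in Control libraries. The means were 20.5% ± 1.54 with DFMO and 16.6% ± 1.91 in Control (SD, n = 3 each), and no DFMO library was as low as any Control library. The log2 odds of retention rose by 0.38 (SE 0.12, adjusted p = 0.0269), a difference of 3.95 points, which is under the 10 points set for a call. This SE came from the trend over introns, not from this intron's own libraries. Among the 3684 introns tested, 8.58% passed the adjusted p at any size. Retention at this level is rare in the table: of 88789 introns measured, 1.02% had a mean percent at or above it, and so did 2 of the 90 measured introns of the 10 enzymes, itself included.

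**Figure D2:**
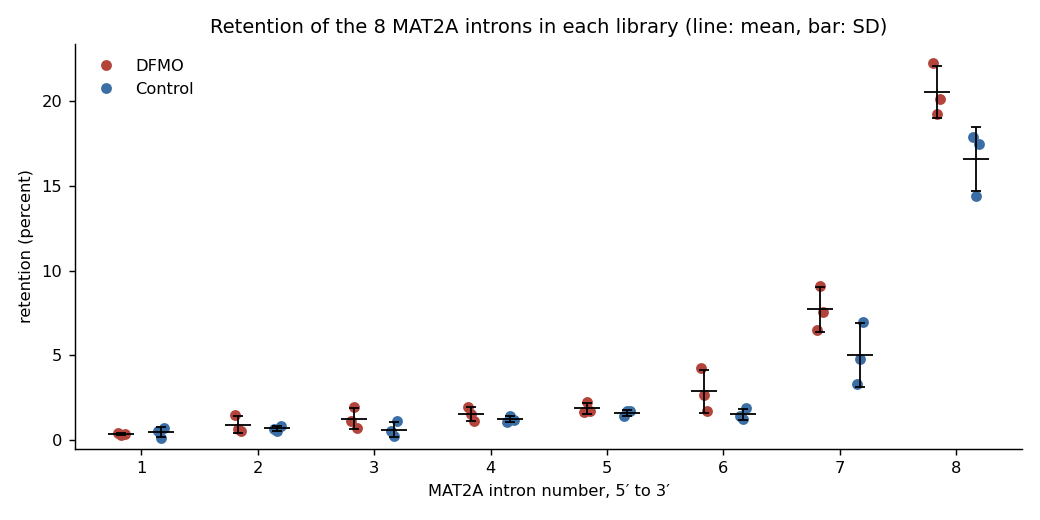
Retention (percent, vertical axis) of MAT2A introns 1 to 8, from the 5′ to the 3′ end of the gene, in DFMO libraries (red, left of each pair) and Control libraries (blue, right); lines are means and bars are SD (n = 3). Introns 1 to 5 stay at or under 2.23%, and intron 8 stands at 19.25% to 22.25% with DFMO and at 14.40% to 17.89% in Control.

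The reads behind the percent of MAT2A intron 8 show where the groups parted. Reads across the 2 exon-intron borders summed to 15.2, 12.4 and 12.4 RPM in DFMO libraries, against 11.0, 8.40 and 11.9 in Control libraries, a ratio of means of 1.28 without overlap. The ratio was 1.27 at the 5′ border, where the groups overlapped, and 1.30 at the 3′ border, where they did not. The 3′ border lies past the end of MAT2A-202, while the 5′ border and most of intron 8 are shared with that transcript. Reads within the intron body were 2.88, 3.18 and 2.24 RPM with DFMO and 1.49, 1.77 and 2.04 in Control, without overlap, and their means had a ratio of 1.57. The exon 8 to exon 9 junction had 26.6, 26.0 and 24.7 RPM with DFMO and 25.3, 25.0 and 28.0 in Control, a ratio of 0.988. The groups thus differed in reads that carry the intron, while the reads of the spliced junction overlapped. Intron 6 had 0.668, 0.710 and 0.545 RPM of body reads with DFMO and 0.288, 0.332 and 0.407 in Control, and its 3′ border had a ratio of 2.68, both without overlap, while its 5′ border overlapped (ratio 1.14). Intron 7 had 0.586, 0.622 and 0.631 RPM of body reads with DFMO and 0.219, 0.403 and 0.435 in Control, without overlap. Its 5′ border had 0.971, 1.56 and 1.19 RPM with DFMO and 0.377, 0.635 and 0.786 in Control. That ratio was 2.07 without overlap, while the 3′ border of intron 7 overlapped (ratio 0.992). GGCX, the gene on the opposite strand that overlaps MAT2A, lies over the end of exon 9, with 1053 bases between it and intron 8.

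**Figure D3:**
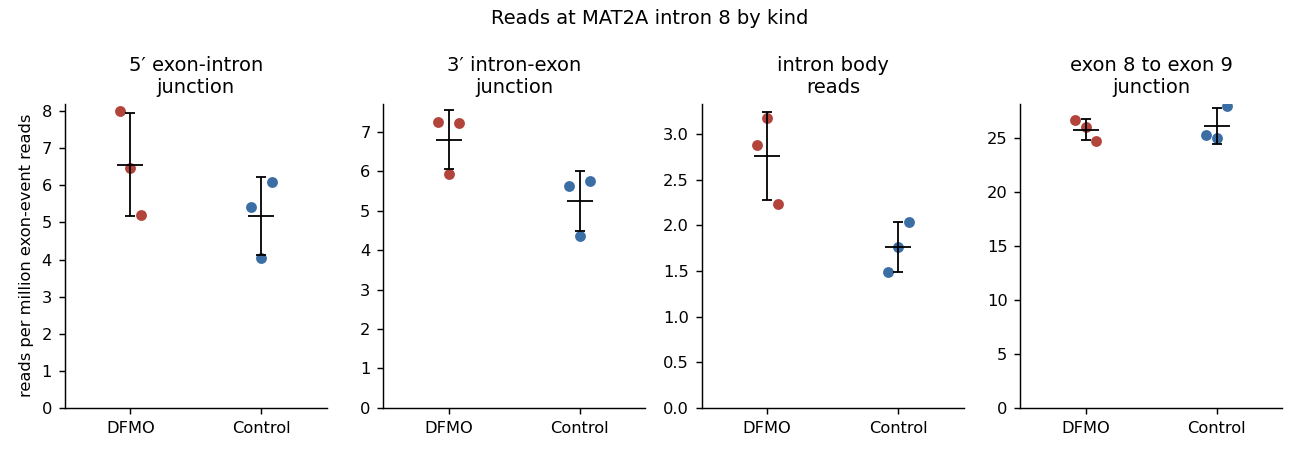
MAT2A intron 8 by kind of read, in RPM (vertical axes, each from 0) in DFMO libraries (red, left) and Control libraries (blue, right); lines are means and bars are SD (n = 3). Intron body reads are 2.24 to 3.18 with DFMO and 1.49 to 2.04 in Control, and the exon 8 to exon 9 junction overlaps.

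The pass of MAT2A intron 8 at the adjusted p was not stable. Its reads at the borders were unbalanced in at least 1 library, with a lowest balance value of 0.00948 in the deposited table, so it had no value when only introns above 0.05 in every library were kept. The intron did not pass without the filter on the mean percent (limma's adjusted p = 0.238) or without the variance trend (limma's adjusted p = 0.498). Nor did it pass without DFMO replicate 1, DFMO replicate 3 or Control replicate 2 (limma's adjusted p = 0.192, 0.0783 and 0.259). The differences were then 3.09, 4.16 and 2.86 points in the same direction.

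In the methyl cycle itself, AHCY, which clears S-adenosylhomocysteine, had proxies of 6.02, 6.08 and 6.10 in DFMO libraries, against 5.85, 5.90 and 5.99 in Control libraries. Every DFMO library was above every Control library, and AHCY rose by 0.15 (SE 0.04, adjusted p = 0.0119, 1.11-fold). All 5 of its exon events and all 8 of its introns were higher. AHCY has 6 pseudogenes named after it in GENCODE 29, and how reads shared with such copies were counted is not given in the sources used here. Retention of the 8 AHCY introns was low, with no mean above 0.273% in either group.

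MTR, methionine synthase, had 2.42, 2.40 and 2.40 in DFMO libraries, against 2.26, 2.38 and 2.33 in Control libraries. The groups did not overlap, but the difference of 0.08 (SE 0.04) had an adjusted p of 0.178. Of its 38 exon events, 32 were higher and 6 lower. With the reads of all MTR exon events summed before the log, the difference was 0.11 and passed (adjusted p = 0.0239). MTRR, the reductase that restores the cobalamin of MTR, had 2.09, 2.26 and 2.14 in DFMO libraries, against 2.32, 2.35 and 2.36 in Control libraries. All DFMO libraries were lower, and MTRR fell by 0.18 (SE 0.05, adjusted p = 0.0204). All 19 of its exon events and all 13 of its introns were lower. MTRR did not pass without DFMO replicate 1 (limma's adjusted p = 0.0710) or 3 (0.0600), or without Control replicate 2 (0.0530) or 3 (0.0595). Its difference kept its direction.

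MTRR held 3 tested exons, none of which passed the test. The exon at chr5:7873373-7873512, coding in several MTRR transcripts, was included at 56.59%, 51.36% and 52.79% in DFMO libraries, against 63.49%, 58.73% and 58.20% in Control libraries. The groups did not overlap, by 6.56 points between the means, and the adjusted p was 0.467 with 97 to 174 reads per library. A 70-nt exon at chr5:7890343-7890412, which in GENCODE 29 is part of an exon of a noncoding MTRR transcript only, had 16.02%, 10.28% and 9.18% with DFMO and 4.98%, 5.22% and 8.78% in Control. These groups did not overlap either, and the difference of 5.50 points had an adjusted p of 0.260. The MTRR exon at chr5:7886615-7886703 had 93.88%, 84.76% and 88.35% with DFMO and 86.72%, 89.34% and 96.15% in Control, with overlap (adjusted p = 0.775). In MTR, use of a 3′ splice site that adds 3 nt at chr1:236803428 was 89.2%, 90.9% and 88.3% with DFMO and 97.7%, 90.4% and 96.5% in Control, with overlap, an adjusted p of 0.623 and 32 to 70 reads.

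In the salvage branch the first enzyme, MTAP, had proxies of 3.11, 3.08 and 3.16 in DFMO libraries, against 3.03, 3.08 and 3.09 in Control libraries. The groups overlapped, and the difference was 0.05 (SE 0.04, adjusted p = 0.317). MTAP is deleted in many tumours; here its 7 exon events had 117 to 456 reads per library on average, so its transcript was detected in this line. MRI1, which isomerises methylthioribose 1-phosphate, had 2.39, 2.34 and 2.35 in DFMO libraries, against 2.59, 2.58 and 2.65 in Control libraries. All DFMO libraries were lower, and MRI1 fell by 0.24 (SE 0.04, adjusted p = 0.00170). Its 4 exon events were all lower, and 2 of its 3 introns. An 89-nt MRI1 exon at chr19:13768359-13768447 was included at 16.35%, 21.60% and 11.83% with DFMO and 9.28%, 10.56% and 14.91% in Control, with overlap (adjusted p = 0.473).

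APIP, the dehydratase of the next step, had 1.71, 1.78 and 1.57 in DFMO libraries, against 1.76, 1.66 and 1.73 in Control libraries, with overlap (difference -0.03, SE 0.07, adjusted p = 0.738). It was the most thinly covered of the 10, with 31.3 to 132 reads per exon event. ADI1, the dioxygenase that makes the oxo acid from which methionine is formed, had 4.37, 4.35 and 4.29 in DFMO libraries, against 4.07, 4.20 and 4.23 in Control libraries. All DFMO libraries were higher, and ADI1 rose by 0.17 (SE 0.05, adjusted p = 0.0150). All 3 of its exon events and all 3 of its introns were higher. Without DFMO replicate 1 the adjusted p of ADI1 was 0.0526. MTAP and ADI1 have 2 and 3 pseudogenes named after them in GENCODE 29.

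**Figure D4:**
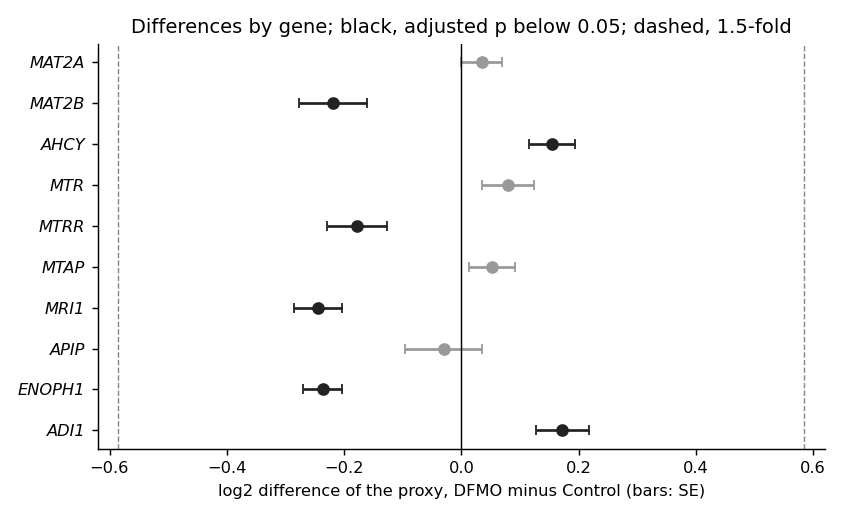
Difference of the junction-read proxy, DFMO minus Control (log2, horizontal axis), for the 10 enzymes in pathway order; points are estimates, bars are SE (n = 3 libraries per group), black marks an adjusted p below 0.05 and dashed lines mark 1.5-fold. The differences run between -0.24 for MRI1 and 0.17 for ADI1, all inside the dashed lines.

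ENOPH1, the enolase-phosphatase between APIP and ADI1, differed in level and in splicing. Its proxies were 4.89, 4.98 and 4.94 in DFMO libraries, against 5.18, 5.14 and 5.19 in Control libraries, all lower with DFMO, and it fell by 0.24 (SE 0.03, adjusted p = 5.78e-04). All 3 of its exon events and 4 of its 5 introns were lower. Inclusion of its coding exon 3 was 91.12%, 91.48% and 91.03% in DFMO libraries, against 85.16%, 85.22% and 80.32% in Control libraries. The means were 91.2% ± 0.238 with DFMO and 83.6% ± 2.81 in Control (SD, n = 3 each), without overlap; the log2 odds rose by 1.01 (SE 0.17, adjusted p = 0.00429), a difference of 7.64 points. The table lists this event with a 93-nt exon, but 99.9% of the reads that leave exon 3 used the splice site at 82451245, which gives the 203-nt exon printed above.

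Use of the shorter 5′ splice site of ENOPH1 exon 1, at position 82430884 of chromosome 4, was 12.62%, 14.57% and 18.13% in DFMO libraries, against 22.30%, 27.08% and 23.96% in Control libraries. All DFMO libraries were lower, and the log2 odds fell by 0.87 (SE 0.23, adjusted p = 0.0113), a difference of -9.34 points. The longer site at 82430913 is the mirror of this value. The SE came from the trend over donor events, not from the spread of this event's own libraries. In GENCODE 29 the shorter site belongs to ENOPH1-202 and ENOPH1-203, and ENOPH1-202 also skips exon 3, so ENOPH1-202 carries both features that were less used with DFMO. Single reads of a junction do not show whether the 2 features lay on the same molecules.

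Junction reads of ENOPH1 show which forms the percents rest on. The exon 2 to exon 4 junction, which skips exon 3, had 1.33, 1.39 and 1.36 RPM in DFMO libraries, against 2.81, 2.80 and 3.68 in Control libraries, a ratio of means of 0.439. The exon 3 to exon 4 junction had 15.4, 17.7 and 15.2 with DFMO and 18.8, 18.8 and 17.8 in Control, a ratio of 0.872 without overlap. The exon 2 to exon 3 junction overlapped, with 11.8, 12.1 and 12.5 with DFMO and 13.4, 13.5 and 12.2 in Control, a ratio of 0.929. The shorter exon 1 junction had 1.62, 1.88 and 2.25 with DFMO and 3.11, 2.95 and 3.29 in Control, a ratio of 0.615. The longer exon 1 junction overlapped between the groups, with 10.6, 10.4 and 9.58 with DFMO and 10.2, 8.62 and 9.83 in Control, a ratio of 1.07. The 2 lowest of these 5 ratios were those of the less used forms. The percents come from these same reads, so within each event this order follows from them and is no separate evidence.

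**Figure D5:**
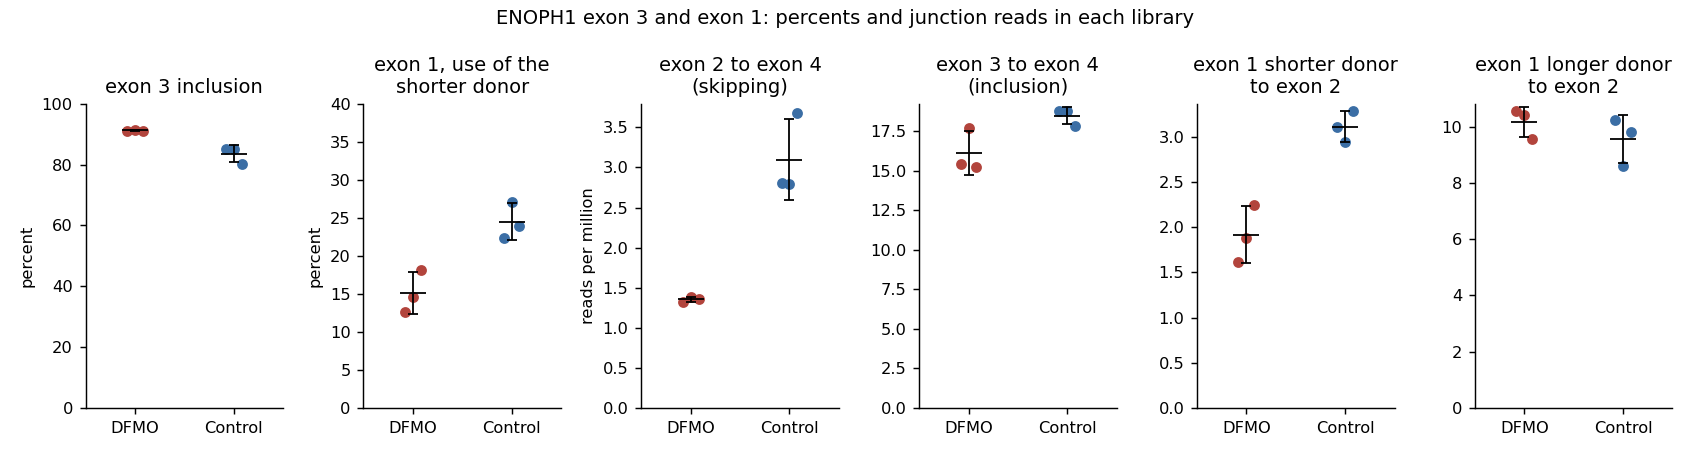
ENOPH1 in DFMO libraries (red, left of each panel) and Control libraries (blue, right): percents of exon 3 inclusion and of the shorter exon 1 splice site, and RPM of 4 junctions (vertical axes from 0, with different spans); lines are means and bars are SD (n = 3). The skipping junction is at 1.33 to 1.39 with DFMO and at 2.80 to 3.68 in Control, and the longer exon 1 junction overlaps.

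Exon 3 of ENOPH1 did not pass without the variance trend (limma's adjusted p = 0.169) and passed under every other alternative run. The exon 1 sites did not pass without that trend (0.445), or without DFMO replicate 1 (0.151), DFMO replicate 2 (0.0564) or Control replicate 2 (0.107).

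Over all 403 events of the 10 enzymes, 339 were measured with adequate coverage in every library, and most of them were constitutive. Of the 94 exons measured, 62 had a mean inclusion over 95%, and 87 of the 90 introns had a mean retention under 5%. Only 19 events had a mean percent between 5 and 95 and were tested, none of them in MAT2B, AHCY, MTAP, APIP or ADI1. Of these 19, 4 passed the adjusted p, where 4.93% of all 18209 tested events did: MAT2A intron 8, ENOPH1 exon 3 and the mirrored pair of ENOPH1 exon 1 sites, which is a single choice listed as 2 entries. The count was 1 without DFMO replicate 1 or Control replicate 2, 2 without DFMO replicate 2 and 0 without the variance trend. None reached 10 points with the adjusted p, against 2.77% of all events. Among the introns that were not tested, 5 had groups that did not overlap, all higher with DFMO, in MTR, MTRR, MTAP, APIP and ENOPH1, and each by less than 2 points. With MAT2A intron 8, 6 of 90 introns of the enzymes lay wholly higher and 0 wholly lower with DFMO, beside 3.82% and 1.8% of all 88789 introns, so this count is not read as particular to them; 0.1 is the smallest exact permutation p that 3 libraries against 3 can give. The median intron difference of the 10 enzymes was 0 points, as over all introns, with 35.6% of 90 and 36.0% of 88789 introns higher.

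Among 29 partners of the methionine and folate cycles, 21 were measured, of which 2 rose, 7 fell and 12 did not pass; their median difference was -0.03, beside 0.0020 over all genes, of which 22.8% passed higher and 22.3% lower. ALDH1L2, a mitochondrial formyltetrahydrofolate dehydrogenase, rose by 0.21 (adjusted p = 0.00595), and GOT1, an aspartate aminotransferase, rose by 0.15 (adjusted p = 0.0147). ADK, which removes the adenosine that AHCY forms, fell by 0.18 (adjusted p = 0.00259). The serine hydroxymethyltransferase SHMT2 fell by 0.15, the trifunctional folate enzyme MTHFD1 by 0.14, the folate carrier SLC19A1 by 0.17 and the amino acid transporter SLC43A2 by 0.25 (adjusted p = 0.00809, 0.0109, 0.00996 and 0.0156). TYMS, thymidylate synthase, fell by 0.08 and MMADHC, a cobalamin chaperone upstream of MTR, by 0.12 (adjusted p = 0.0452 and 0.0497).

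On the polyamine side, AMD1, which commits SAM to polyamines, rose by 1.88 on the log2 scale (adjusted p = 1.46e-07, read on 1 exon event), and SRM, spermidine synthase, had a difference of 0.02 (adjusted p = 0.622); SMS was not measured. Beside the rise of AMD1, the difference of each of the 5 salvage enzymes lay between -0.24 and 0.17.

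Of 9 genes that regulate MAT2A or place and read N6-methyladenosine, 2 rose, 1 fell and 6 did not pass, with a median difference of 0.08. Beside the 22.8% of all genes that passed higher and the 22.3% that passed lower, these counts are not read as particular to the list. METTL16 had proxies of 2.50, 2.49 and 2.40 in DFMO libraries, against 2.44, 2.54 and 2.42 in Control libraries, with overlap (adjusted p = 0.925). YTHDC1, a nuclear reader of the mark, rose by 0.15 (adjusted p = 0.0121), METTL14, a subunit of the main methyltransferase, rose by 0.19 (adjusted p = 0.0292), and ALKBH5, a demethylase, fell by 0.18 (adjusted p = 0.00962).

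Of 19 enzymes that consume SAM, 17 were measured, of which 3 rose, 8 fell and 6 did not pass, with a median difference of -0.03, beside 22.8% of all genes higher and 22.3% lower. DNMT1, the maintenance DNA methyltransferase, fell by 0.32, PRMT5, the arginine methyltransferase, by 0.31, and EZH2, the histone H3 methyltransferase of Polycomb, by 0.30 (adjusted p = 4.05e-04, 8.72e-05 and 3.51e-04). ICMT, EHMT1, PCMT1, DOT1L and PRMT1 fell by 0.25, 0.23, 0.21, 0.13 and 0.08. PEMT, which makes phosphatidylcholine, rose by 0.21, SETD2, a histone methyltransferase, by 0.19, and DNMT3A, a de novo DNA methyltransferase, by 0.17.

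The label of the cells was checked against marker genes. All 10 noradrenergic neuroblastoma markers were measured, with a summed 4946 to 4966 RPM in DFMO libraries and 4344 to 4446 in Control libraries. CHGA weighed most in this sum, with 507382 reads over all libraries against 124744 for DDC, the next, and CHGA rose by 0.25. By proxy, 5 of the markers rose, 2 fell and 3 did not pass. GATA3 and PHOX2A rose by 0.47 and 0.53, and DDC was among those that fell, by 0.12. Of 7 mesenchymal markers, 2 were measured, and the list summed to 51.9 to 58.0 RPM with DFMO and to 54.0 to 58.4 in Control. No immune, endothelial or fibroblast marker was measured with adequate coverage, and their lists summed to 1.74 to 2.21, 0 to 0.177 and 2.59 to 4.36 RPM with DFMO and to 1.27 to 1.35, 0 to 0.169 and 4.55 to 6.79 in Control, with PECAM1 at 0 reads. What part the difference in this noradrenergic sum had in the results was not tested. Event reads of all classes ran between 82918379 and 100005273 in DFMO libraries and between 77648922 and 103250467 in Control libraries, and a read can count in more than 1 event.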

How the data were processed

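The deposited table gave, for each library and event, a percent (inclusion, retention or splice site use) and a quality text with a coverage score and read numbers. Libraries were stranded mRNA, per the labels, and the build was GRCh38, per the submitters' processing notes. Aligner, quantifier and use of strand in counting: not given in the sources used here. All 2858409 percents compared lay within 0.5 points of their own reads, and 402559 quality texts without read numbers were taken as 0 reads. What is called intron body reads here is unlabelled in the table and was read from its values.

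Events were tested with LOW or better coverage, 10 or more reads in each library, and a mean percent of 5 to 95. With limma 3.58.1 (R 4.3.3), the log2 odds, with 0.5 added to reads of each kind, were fitted with robust moderation and a variance trend on counting variance; Benjamini-Hochberg adjustment was within each class. Prior degrees of freedom were infinite for 91.4% to 94.6% of intron, acceptor and donor events, so those tests lean on the trend. The proxy (pseudocount 1, 1e+06 reads) was fitted with limma and adjusted over 9232 genes. Untested events had exact permutation tests. The variance of exon reads between libraries of a group was 2.01 to 2.36 times that of counting. Functions were tested on simulated data.

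Members, lists and tests were chosen with earlier results of these data known. Named were all 10 enzymes, every tested event past the adjusted p or largest in its gene, all MAT2A introns and the passing genes of each list; the 70-nt MTRR exon, METTL16 and the ENOPH1 junctions were added after their values were seen. Some genes of the lists are not reported here by name. Same-numbered libraries did not deviate together, so numbers were not used as pairs.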

Additional observations from a re-analysis of the deposited data

How the results depend on the processing

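The count of enzyme events past the adjusted p was 4; it was 0 without the variance trend and 1 to 4 with each library left out in turn. Without that trend, 14 exon events and 0 intron, acceptor or donor events in the whole table passed limma's adjusted p, with 1295, 644, 396 and 314 at an unadjusted p below 0.05. No enzyme event was called at 10 points, but with libraries left out in turn the count was 0 to 2: the ENOPH1 exon 1 pair passed without DFMO replicate 3 or Control replicate 1. With all exon events and no filter on the coverage score, the enzymes that rose numbered 0 (2 as reported) and those that fell 2 (4 as reported), and MAT2B, AHCY, MTRR and ADI1 no longer passed (adjusted p = 0.166, 0.109, 0.0920 and 0.112); the cause was not tested. With libraries left out in turn, 1 to 2 rose and 3 to 4 fell. The difference of MTAP, which passed nowhere, was -0.0275 with intron events, and that of APIP lay between -0.0766 and 0.0276 with libraries left out. Proxies from intron events gave 1862 higher and 2712 lower genes, against 2102 and 2056 as reported, and scaling to all event classes, an alternative chosen after seeing the data, 1914 and 2320. With intron reads required to be balanced at both ends, MAT2A intron 8 has no value, since it fails that filter. With a replicate block, the enzyme events past the adjusted p stayed at 4 and the genes at 2 higher and 4 lower, and over all genes 1978 and 1928 passed; correlations of same-numbered libraries' deviations were 0.00462, 0.0143 and -0.0207. The tested exons of MTR, MTRR and MRI1 had 84 to 233 reads per library, and what that depth limits was not tested.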
